A study of Bos taurus with 72 samples.

Results

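The comparison described here sets whole blood of feedlot cattle at close-out against whole blood of the same animals at the stage called pulled. Its libraries were first chosen by their labels: all those marked as close-out or pulled, paired within the animal. The pairs of 2 animals were then set aside because of their expression values, as given below. This left 44 of the 72 libraries of the series, or 22 libraries at each stage. The series followed 24 male beef cattle through entry, pulled and close-out under a title that names bovine respiratory disease. No treatment, genotype, breed, age, diagnosis or sampling date is given per animal in the labels, so close-out also differs from pulled in age and time on feed. The animals therefore serve as their own controls, and no animal group that stayed healthy was analysed here.

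In feedlot practice an animal is pulled when it is taken from its pen for a health examination, and close-out is the end of the feeding period. Bovine respiratory disease is a lung disease in which viruses, bacteria and the stress of transport and mixing act together. Blood kept in PAXgene tubes is lysed at collection, so its RNA comes from all blood cells at once: neutrophils, lymphocytes, monocytes, platelets and young red cells. A lower level of a transcript in such a sample can mean fewer cells that carry it or less of it per cell, and these cannot be told apart here. Poly-A selected RNA was sequenced, and each value is a count of reads per gene.

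The pulled libraries of animal 9 and animal 12 (title numbers 26 and 41) are the reason why these animals were set aside. Animal numbers used here are not the numbers that end the library titles: animal 17 has title number 67, and title number 17 is animal 8. Over 100 genes that separated the animals at entry and close-out, the pulled library of each of the 22 animals kept correlated best with its own animal, at 0.79 or more, and at no more than 0.57 with another. The library labelled pulled of animal 9 correlated with its own animal at -0.09 and with animal 11 at 0.94. That of animal 12 correlated with its own animal at 0.01 and with no animal above 0.27. These correlations run across genes, which are not independent replicates. No 2 of the 44 libraries were near copies: the lowest chi-square per degree of freedom over 946 pairs was 29.8, where sampling noise alone gives about 1.

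Depth was alike at both stages, with 17.0 ± 4.05 megareads counted per library at pulled and 17.1 ± 4.39 megareads at close-out (SD, n = 22 each), and a range of 8.24 to 29.1 megareads over both. More genes had a count at close-out (15332 ± 260) than at pulled (15082 ± 331), with 16 of 22 animals higher (two-sided sign-flip permutation test, adjusted p = 0.0148 over 4 measures). The TMM scaling factor was also higher at close-out (1.05 ± 0.145 against 0.964 ± 0.0979, 15 of 22 animals, permutation test, adjusted p = 0.0148). Total counts and the share of counts in the 10 most abundant genes did not pass (permutation test, adjusted p = 0.924 and 0.473). The part that these library differences play in the gene results was not tested beyond the change of scaling given below.

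Genes are known here only by their Ensembl cattle identifiers. The files do not pair them with names. The gene table at hand, which is of another assembly, held no Ensembl identifiers, so none of the 24616 could be looked up in it. No symbol, position, sequence or cell type is therefore given for any gene, and the blood cell markers could not be checked. Identifiers are printed for 2 genes that rose and 2 that fell, those with the largest change among genes that passed the test, had a mean level of at least 1 and moved the same way in at least 20 of 22 animals. The other genes are described by their counts, levels and agreement between animals. Levels are log2 CPM, the log2 of read counts scaled by library total and TMM factor. A change is close-out minus pulled, so a negative value means less RNA at close-out. Levels carry no gene length, so they are compared within a gene, and bands of level rank genes by read counts.

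The largest changes of this comparison were falls. ENSBTAG00000014707 was among the abundant transcripts of blood at pulled and fell by 4.18 on the log2 scale, or 18.2-fold lower at close-out. At pulled its level had a lowest value of 8.73, a median of 11.72 and a highest value of 13.52 log2 CPM. At close-out the lowest, median and highest values were 5.92, 7.29 and 10.25 log2 CPM. Of the pulled libraries, 20 lay above every close-out library, and the ranges overlapped only through the lowest pulled animals and a few high close-out ones. In read counts the median library went from 60940 to 2633.5. The level was lower at close-out in 22 of 22 animals (SE of the fitted log2 fold change 0.33, edgeR adjusted p = 3.24e-09). Single animals changed by between -6.68 and -0.36 log2 units.

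ENSBTAG00000014628 fell by 3.92 on the log2 scale, or 15.2-fold, from a lower starting level. Its pulled libraries ran from 4.67 through a median of 7.20 to 9.15 log2 CPM. Its close-out libraries ran from 1.08 through 3.29 to 5.72 log2 CPM, with 19 pulled libraries above all of them. The fall was seen in 21 of 22 animals (SE 0.31, edgeR adjusted p = 3.24e-09). In animal 16, the exception, the level was 0.24 log2 units higher at close-out. For both falling genes animal 17 had the lowest and animal 19 the highest pulled level.

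ENSBTAG00000011990 rose by 3.17 on the log2 scale, or 9.01-fold, the largest rise among genes with a mean level of at least 1 that moved alike in at least 20 animals. At pulled its levels were widely scattered, with a lowest value of 0.54, a median of 3.61 and a highest of 6.97 log2 CPM. At close-out they lay between 4.65 and 8.87 log2 CPM, with a median of 6.77, and 16 pulled libraries were below every one of them. The gene was higher at close-out in 21 of 22 animals (SE 0.42, edgeR adjusted p = 4.58e-06). Animal 10 was the exception, with a level 2.22 log2 units lower at close-out.

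ENSBTAG00000000273 rose by 2.80 on the log2 scale, or 6.97-fold, and did so in 22 of 22 animals (SE 0.35, edgeR adjusted p = 2.08e-06). It is a gene of few reads: the median pulled library held 10 reads of it and the median close-out library 96. Its pulled levels ran from -2.24 through -0.18 to 2.00 log2 CPM, and its close-out levels from 1.77 through 2.35 to 5.02 log2 CPM. All but 1 of the pulled libraries were below every close-out library. For both rising genes animal 6 had the lowest pulled level.

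**Figure D1:**
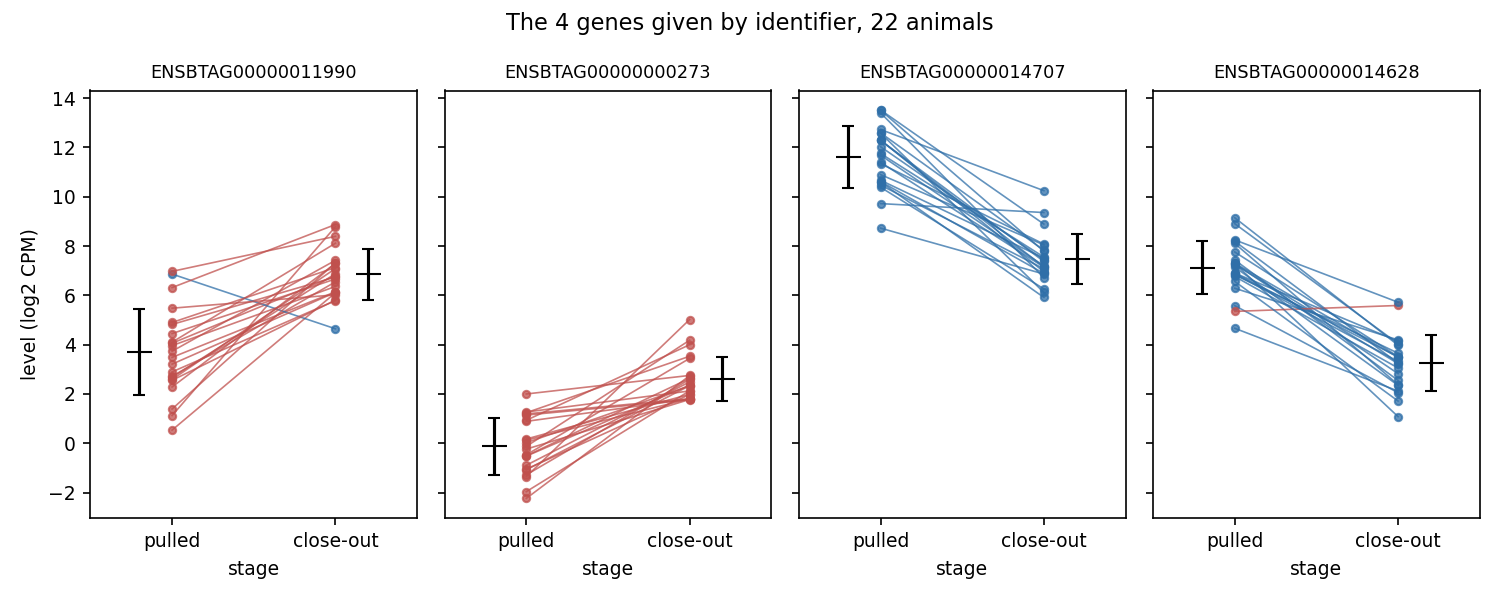
Level in log2 CPM (vertical axis) of the 4 genes at pulled and close-out (horizontal axis), 1 line per animal (n = 22), red where the level was higher and blue where it was lower at close-out; black marks are the mean and its SD. The lines of ENSBTAG00000014707 all fall and those of ENSBTAG00000000273 all rise, while ENSBTAG00000011990 and ENSBTAG00000014628 have 1 animal each that goes the other way.

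Over the whole transcriptome the comparison moved many genes by small amounts and few by large ones. The test was passed by 31.3% of the 12174 genes it covered: 2033 genes (16.7%) were up and 1782 (14.6%) were down at close-out (edgeR quasi-likelihood test blocked by animal, adjusted p under 0.05). Genes that were up had a median change of 0.46 and genes that were down one of -0.38 on the log2 scale, beside 0.02 over all genes tested. With the pairs of animals 9 and 12 put back, 2109 genes were higher and 1792 lower.

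With TMM scaling, large changes were more often falls. A change of over 2-fold was found in 174 higher and 207 lower genes, and one of over 4-fold in 23 higher and 36 lower genes. A test against a 1.5-fold change was passed by 125 higher (1.03% of genes tested) and 150 lower genes (1.23%). The 20th largest change under the rule for printed genes was 1.76 among the rises and -2.34 among the falls. The difference between these numbers of rises and falls was not tested, and they were taken with TMM scaling only.

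The split between higher and lower calls depended on how libraries were scaled. With library totals in place of TMM factors, 3165 genes were higher and 884 lower, which took higher genes from 53.3% to 78.2% of all calls. The median change over all genes tested shifted with it, from 0.02 to 0.14 log2 units. The large and consistent changes described next kept their calls under this choice.

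Genes that rose and genes that fell sat at different levels. Among 2753 genes with a mean level of 1 to 3 log2 CPM, 20.1% were higher and 8.72% lower at close-out. Among 1295 genes with a mean level of 7 to 9 log2 CPM the order was turned, with 8.11% higher and 25.8% lower. Of the 100 most abundant genes, 7 were higher and 13 lower, beside 16.7% and 14.6% of all genes tested. With library totals only, 19.4% of the genes at 7 to 9 log2 CPM were higher and 13.4% lower. The excess of falls in that band was thus lost. Under both scalings the share of higher genes was larger at 1 to 3 than at 7 to 9 log2 CPM, and the share of lower genes smaller.

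**Figure D2:**
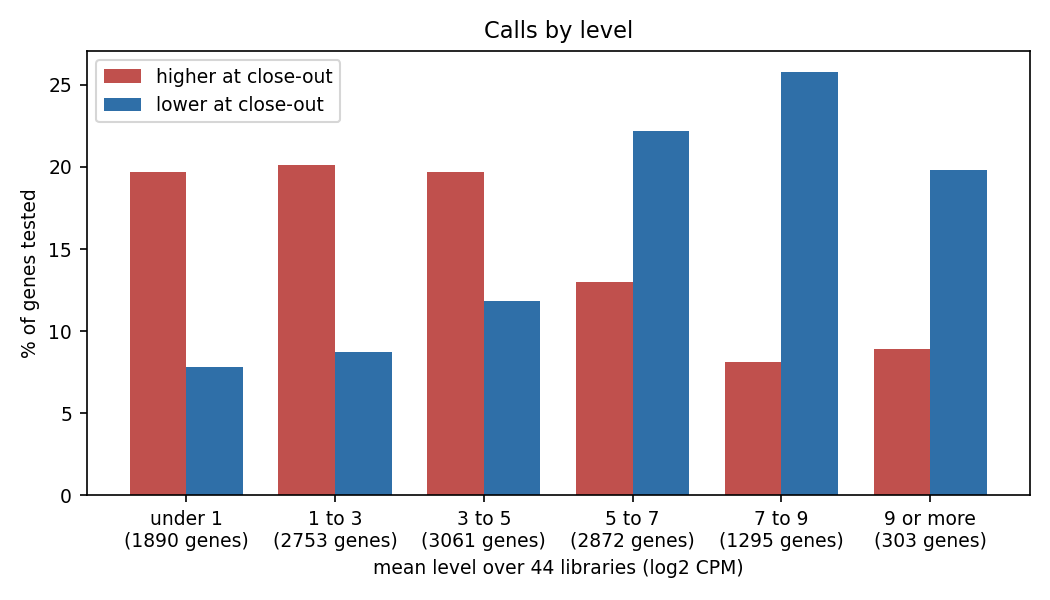
Share of genes tested (vertical axis, %) that were higher (red) or lower (blue) at close-out with TMM scaling, by mean level over the 44 libraries (horizontal axis, log2 CPM). Higher genes are the larger share below a level of 5 and lower genes the larger share above it, an order that did not hold above 5 with library totals only.

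**Figure D3:**
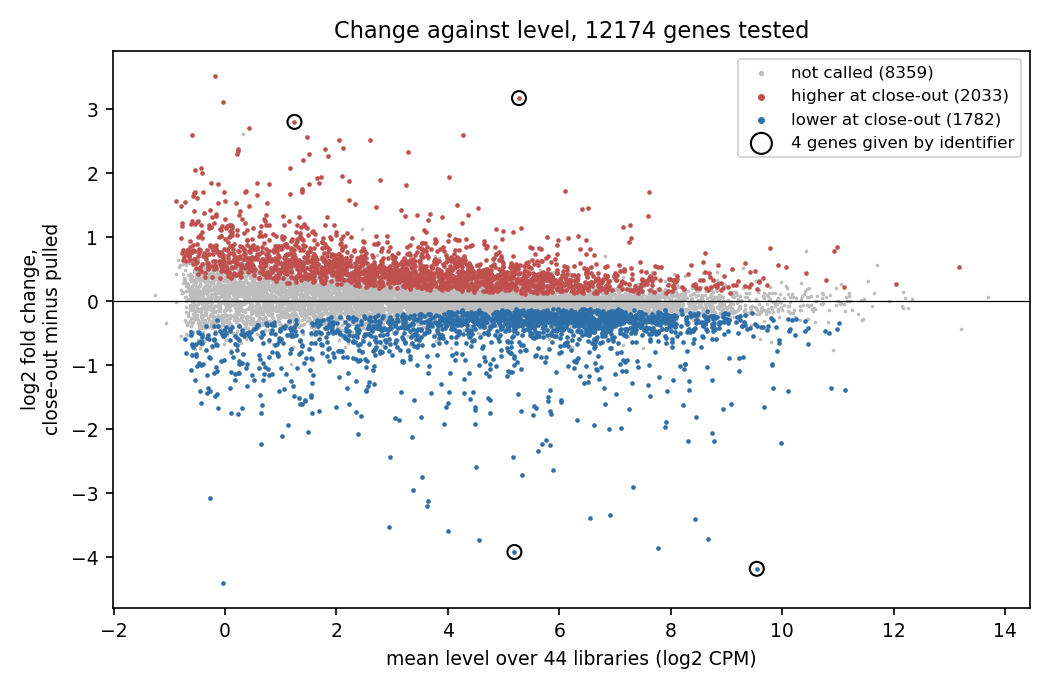
Log2 fold change of close-out minus pulled (vertical axis) against mean level in log2 CPM (horizontal axis) for 12174 genes, with genes past the adjusted p of 0.05 in red (2033 higher) and blue (1782 lower) and the 4 printed genes circled. The deepest falls reach genes of high level, such as ENSBTAG00000014707, while most rises of over 2-fold are at low levels.

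The genes that changed both strongly and alike over the animals form 2 groups: 55 genes rose and 100 fell by over 2-fold in at least 20 of 22 animals, at a mean level of at least 1. They were taken by their change in this comparison, so their levels are a description without a further test. All 155 kept their direction under each of the 35 other settings tried. These settings reuse the libraries by which the genes were chosen, so this was largely fixed in advance. The 55 and the 100 also all passed with library totals only, with RLE factors, with DESeq2, with limma-voom and without any 1 animal. With no block 54 and 100 passed, against a 1.5-fold change 52 and 93, and within the 6 animals whose title numbers are above 100 they were 34 and 70.

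The 100 falling genes carried a visible part of the blood RNA. Their share of all counts was 3.84% ± 1.85 at pulled and 1.06% ± 0.269 at close-out (SD, n = 22 each). Single libraries ran from 1.22% to 8.64% at pulled and from 0.757% to 1.78% at close-out. At pulled, 46 of these genes had a mean level of 7 log2 CPM or more. Their median level went from 6.80 log2 CPM at pulled to 4.98 at close-out.

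The 55 rising genes were mostly scarce. They held 0.0653% ± 0.0364 of counts at pulled and 0.200% ± 0.0810 at close-out (SD, n = 22 each), and 38 of them had a mean level of 1 to 3 log2 CPM. Their median level went from 1.12 to 2.73 log2 CPM. Only 3 of them reached a mean level of 7 log2 CPM at close-out.

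For most of these genes the animals lay further apart at pulled than at close-out. The standard deviation between animals was larger at pulled for 90 of the 100 falling genes, with a median SD of 0.94 log2 units at pulled and 0.58 at close-out. It was larger at pulled for 40 of the 55 rising genes (median SD 0.91 against 0.79). Over all 10284 genes with a mean level of at least 1 it was larger at pulled for 62.1% (0.41 against 0.38). SDs of log values depend on level, which was higher at pulled for the falling genes and lower at pulled for the rising ones. The genes share the same animals and are not independent cases. These differences in spread were not tested.

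The mean level of the 100 falling genes was taken in each animal. At pulled it ran from 5.16 log2 CPM in animal 17 to 8.25 in animal 19, with a median of 6.56. At close-out it ran from 4.47 to 5.66 log2 CPM, so the highest close-out libraries lay above the lowest pulled ones. The change was negative in every animal, from -3.27 log2 units in animal 5 to -0.41 in animal 17 and -0.22 in animal 16. Animals 16 and 17 were also the lowest at pulled. For the 55 rising genes the change was positive in every animal, from 0.37 in animal 10 and 0.47 in animal 16 to 2.73 in animal 2. Of the 11 animals with a fall larger than the median, 6 also had a rise larger than the median, close to an even split. A link between the 2 changes was not tested.

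Agreement between animals was strict for a small part of the genes. Higher levels at close-out in 22 of 22 animals were found for 63 genes past the test (0.517% of genes tested), and lower levels in all 22 for 60 genes (0.493%). Every gene with such full agreement passed the edgeR test. Full agreement did not need a large change: the 63 genes ran from 0.17 to 3.52 on the log2 scale (median 0.82), and 16 of them changed by under 1.5-fold. The 60 falling genes ran from -0.23 to -4.18 (median -1.05), with 11 under 1.5-fold. Among all genes called in either direction the median gene moved the same way in 18 of 22 animals, and the fewest animals behind a call were 13.

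**Figure D4:**
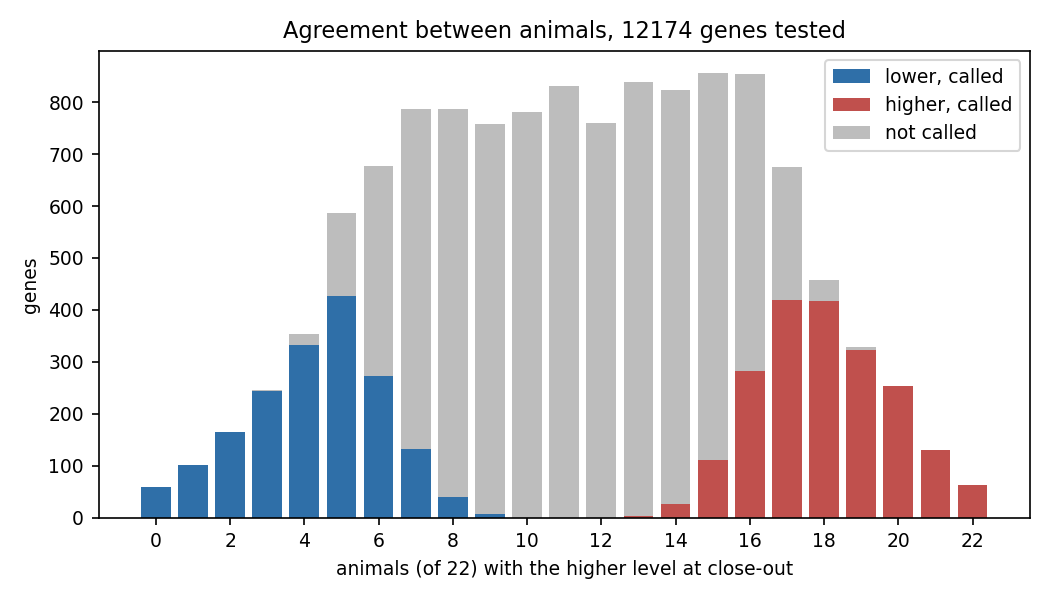
Number of genes (vertical axis) by how many of the 22 animals had the higher level at close-out (horizontal axis), with genes called lower in blue, called higher in red and not called in grey. Calls lie at both ends, with 60 genes lower in all animals and 63 higher in all, and the genes in the middle were not called.

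How well the change of the herd described a single animal was read from genes called without that animal. Genes were called in the other 21 animals, and the share that moved the called way in the animal left out was counted. The median animal had 84.6% of the higher genes higher and 80.9% of the lower genes lower at close-out. Over all genes tested, between 48.6% and 56.1% were higher at close-out in a single animal. Animal 8 followed the herd most closely, with 96.4% and 96.1%. At the other end, animal 13 had 54.4% of the higher and 49.0% of the lower genes on the called side, and animal 3 had 58.4% of the higher and 974 of 1948 lower genes. Animal 10 had 52.9% and 62.2%.

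In several animals a much larger share of the strong falls was present than of the broader set of falls. Genes called with over 2-fold change in the other 21 animals, at a mean level of at least 1, numbered 76 to 95 rising and 150 to 180 falling. In animal 3, 93.8% of these strongly falling genes were lower, against 974 of 1948 genes called lower at any size. Similar pairs of values came from animal 13 (92.5% against 49.0%), animal 20 (97.5% against 57.1%) and animal 23 (92.2% against 52.4%). Animals 16 and 17 showed the reverse order, with no more than 55.1% of the strongly falling genes lower against 64.1% and 67.8% of all lower genes. In animal 17 the median change of the strongly falling genes was -0.07, and in animal 16 it was -0.28. In animal 4 as well the strongly falling genes followed less often (65.5%, against 1215 of 1735 genes called lower at any size). In that animal 98.7% of the strongly rising genes rose. Animal 1 had the same order for the falling genes (77.1% against 81.0%). The median animal had 93.3% of the strongly falling and 92.3% of the strongly rising genes on the called side. For all lower and all higher genes these medians were 80.9% and 84.6%. No test was made of the differences between animals, each of which has 1 library per stage.

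**Figure D5:**
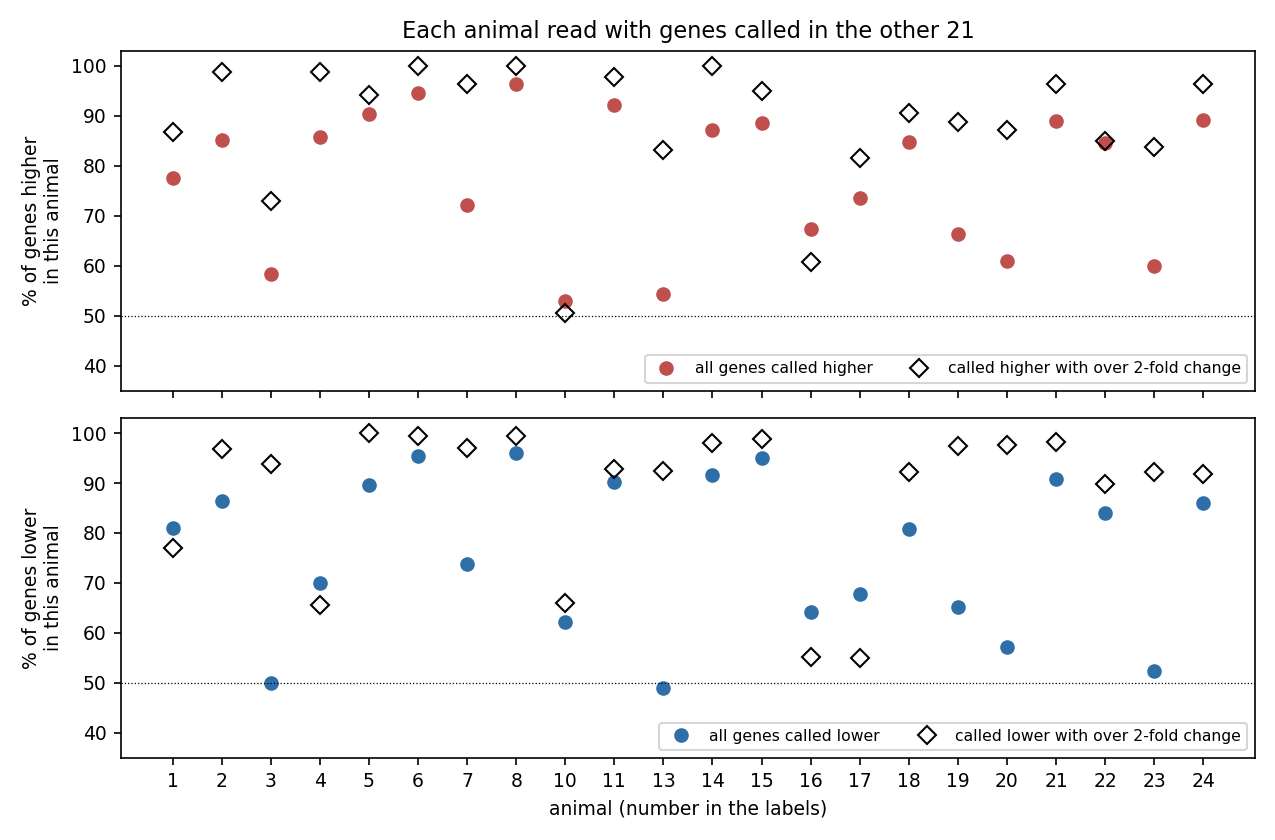
Share of genes (vertical axes, %) that moved the called way in each animal (horizontal axis), for genes called higher (top) or lower (bottom) in the other 21 animals. The horizontal axis gives the animal number used in the text, which is not the number in the library title. Filled points are all called genes, open diamonds those of over 2-fold change, and the dotted line is 50%. Animals 3, 13, 20 and 23 have high diamonds above low points for the lower genes. For the same genes animals 10, 16 and 17 have both below 70%.

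Animals whose library titles carry numbers up to 98 (16 animals) and above 100 (6 animals) are given apart here. At entry these sets stood apart in earlier results of these data, and the labels give no batch or date that could separate them otherwise. The 16 animals alone gave 1393 genes up and 1149 down at close-out, and the 6 animals alone gave 89 up and 132 down. Among genes that passed in both sets, 80 were higher in both, 121 were lower in both and 0 went opposite ways. The 100 falling genes had a median log2 fold change of -1.59 in the 16 and -1.96 in the 6. For the 55 rising genes it was 1.36 and 1.72. Both groups were chosen by their change over all these animals, so their direction in each set was largely fixed by that choice. The interaction of stage and set was tested too over 12174 genes, with 6 animals on one side. By edgeR 0 genes were called (232 had an unadjusted p under 0.05), and by limma-voom 0 (270 unadjusted). Both unadjusted counts are less than a 0.05 share of the genes tested, the share that chance alone would give. Within the 6 animals ENSBTAG00000000273 did not pass (log2 fold change 3.61, edgeR adjusted p = 0.0836), while the other 3 printed genes did.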

How the data were processed

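The values are read counts per Ensembl gene, 1 column per library, as deposited by the authors with no normalization. The reads were processed with TopHat2 and HTSeq on the build UMD3.1, per the submitters' processing notes; the versions, the annotation and the strand setting were not given in the sources used here, so reads of overlapping or near-identical genes cannot be separated. Per the labels' protocols, RNA samples under a minimum integrity were not sequenced. Counts were analysed in R 4.3.3 with edgeR 4.0.16: its expression filter by stage left 12174 of 24616 genes (99.9% of counts), libraries were scaled by TMM, and the 44 libraries were fitted by a quasi-likelihood model of stage, blocked by animal. P-values were adjusted by Benjamini-Hochberg over all genes tested. Libraries were paired by animal, which gives the same pairs as the number ending the library title. All 22 pulled libraries matched their own animal best. Standard errors were derived from the fold change and its F statistic. Log2 CPM used a prior count of 2. Library measures used 100000 sign flips.

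Printed genes follow the rule given with them. It was set for genes with a symbol and, as none had one, gave 2 genes per direction; the marker and pathway lists could not be used for the same reason. The comparison, the animals left out and the rules were chosen with earlier results of these data known; the groups of 55 and 100 genes, the bands of level, the spread and the readings of animals left out were added after the results were seen. Counts were simulated for 12174 genes in 22 animals, close-out against pulled. Recovery was 59% for 100 genes with a 1.5-fold change and 88% for 100 genes with a 2-fold change. There were 11 false calls among 158. The simulation changed far fewer genes than were called in the data, and its noise was estimated without a term for stage. Its rates need not hold for the real comparison. Alternatives were no block, other scalings, filters and thresholds, DESeq2 1.42.0, limma-voom (limma 3.58.1), 24 pairs, entry libraries in the fit, title-number sets and leaving out each animal.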

Additional observations from a re-analysis of the deposited data

How the results depend on the processing

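The direction of the 4 printed genes held under all 35 alternatives, which was largely fixed by choosing them from the same libraries. Only ENSBTAG00000000273 missed the threshold once, in the 6 animals with title numbers above 100. Without the replicate block, here the animal, the counts stayed within 1.5 times: 1709 genes were up and 1614 down at close-out, against 2033 and 1782 with it. The genes called were not all the same. Of those called with the block, 1626 up and 1478 down were also called without it. The counts moved by over 1.5 times under these settings. With library totals only they were 3165 higher and 884 lower. With title numbers above 100 they were 89 and 132, and with title numbers up to 98 the lower count was 1149, both with fewer animals. Against a 1.5-fold change they were 125 and 150, and at an adjusted p under 0.01 they were 1208 and 1003. Without 1 animal at a time, the higher count ran from 1769 to 2263 and the lower count from 1537 to 2080. The remaining settings (RLE factors, DESeq2, limma-voom, both filters, 24 pairs and entry libraries in the fit) stayed within 1.5 times. RLE factors and DESeq2 gave slightly more lower than higher genes, with 48.9% and 49.2% higher. Putting back the 2 animals kept every library measure on its side of the threshold. Depth left ENSBTAG00000000273 with as few as 2 reads in a pulled library.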

Other observations

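Entry libraries of the same 22 animals give a further level for the genes described, scaled together with the other 2 stages. They took no part in the main test of close-out against pulled, though they were in the alternative fit that added them and helped to choose the genes of the identity check. In the 16 animals with title numbers up to 98, ENSBTAG00000014707 had a mean level of 10.47 ± 1.11 log2 CPM at entry, 11.56 ± 1.34 when pulled and 7.66 ± 1.16 at close-out (SD, n = 16). In the other 6 animals the means were 10.52 ± 2.01, 11.81 ± 1.12 and 7.05 ± 0.23 (SD, n = 6). Its close-out level was thus the lowest of the 3 stages in both sets, and its entry level was closer to pulled. ENSBTAG00000014628 had an entry mean of 6.77 ± 0.81, a pulled mean of 6.95 ± 1.13 and a close-out mean of 3.32 ± 1.28 in the 16 animals, and 5.73 ± 1.51, 7.66 ± 0.74 and 3.17 ± 0.67 in the 6. ENSBTAG00000011990 had its entry mean between the other stages in both sets, at 5.37 ± 1.68 log2 CPM in the 16 and 5.23 ± 1.94 in the 6. ENSBTAG00000000273 did as well, at 1.74 ± 1.19 and 0.64 ± 1.06 log2 CPM.

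Of the 100 genes that fell strongly and alike from pulled to close-out, 64 had their entry mean between pulled and close-out in the 16 animals and 84 in the 6. In 27 and 13 of them the entry mean was above both other stages, and in 9 and 3 below both. It was closer to the close-out than to the pulled mean for 43 genes in the 16 animals and 45 in the 6. Of the 55 rising genes, 41 and 45 had their entry mean between the other stages, and 18 and 27 had it closer to close-out. The genes were chosen for a wide gap between pulled and close-out, which favours an entry mean between them, so these counts describe levels and were not tested.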
